A study of Mus musculus with 18 samples.

Results

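The count table holds 52636 genes, and 10 of them are described here. They are 7 genes that glucocorticoids are known to induce (*Zbtb16*, *Tsc22d3*, *Fkbp5*, *Per1*, *Hif3a*, *Sgk1* and *Klf9*), the metallothioneins *Mt1* and *Mt2*, and *Nr3c1*, the gene of the glucocorticoid receptor. All 10 were found by symbol, and they were selected on their measured levels in these same libraries, so their differences between groups are given as a description. No *P*-values are given for them, and nothing is read from the numbers of them that pass a threshold. For 9 of the 10, mouse RPE libraries with nSREBP2 or an *Lrp2* hairpin lay below those of the control vector, without overlap, in at least 2 of 3 comparisons. Of all genes tested, 38.2% (nSREBP2 versus GFP), 25.2% (*Lrp2* sh1 versus ctrl sh) and 36.8% (*Lrp2* sh2 versus ctrl sh) did not overlap, in either direction. *Fkbp5* was the one whose groups overlapped in all 3.

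The libraries were made from the retinal pigment epithelium (RPE) of C57BL/6 mice at postnatal day 14, with 3 libraries in each of 6 groups. Uninjected eyes formed one group, and the others had received, under the retina at birth, an adeno-associated virus of serotype 8 (AAV8) whose *Best1* promoter drives expression in the RPE. The viruses carried GFP, nSREBP2 (the nuclear, active fragment of the transcription factor SREBP2), a control hairpin against LacZ (ctrl sh), or 1 of 2 hairpins against *Lrp2* (*Lrp2* sh1 and *Lrp2* sh2), which encodes the endocytic receptor megalin. GFP is the control for nSREBP2 and ctrl sh the control for the hairpins. Both eyes of 1 mouse, separate for each library, were pooled. The retina and the optic nerve were taken off, and the cells were released from the eyecup with papain. RNA of neighboring cells was present as well, as the marker levels below show. In such bulk RNA, fewer cells of a type and less RNA per cell cannot be told apart.

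Glucocorticoids cross the cell membrane and bind a receptor that is held ready in the cytoplasm by chaperones. The bound receptor enters the nucleus, binds DNA at glucocorticoid response elements and activates genes that limit inflammation and set metabolism, among them inhibitors of its own pathway. Metallothioneins are small proteins that hold zinc and copper, and their genes respond both to metals, through metal response elements, and to glucocorticoids.

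The promoters of the genes are shown first, because 2 of them hold a match to the receptor's motif. No window was used for *Zbtb16* and *Nr3c1*, which does not show that these genes lack one. RefSeq windows of 250 bases before an annotated start site (GRCm38.p6) were used for the other 8 of the 10 genes, in 16 windows. They were searched on both strands for the glucocorticoid response element (GNACANNNTGTNC), the metal response element (TGCACNC or TGCGCNC) and the E-box of the clock proteins (CACGTG), which do not overlap one another in these windows. The glucocorticoid motif was found in the windows of *Mt1* and *Sgk1*, while 0.387% of all 32851 windows searched hold it. The metal motif, held by 21.4% of all windows, was found in those of *Mt1*, *Mt2*, *Hif3a* and *Per1*, and the E-box, held by 6.02%, in those of *Fkbp5*, *Per1* and *Sgk1*. A gene is named where any of its windows holds the motif, and *Sgk1* and *Tsc22d3* have several. The genes named thus cannot be set beside a share of windows, and no excess of a motif is read from them. In the sequences, capitals mark the glucocorticoid and metal motifs. In the *Mt1* window (chr8:94178839-94179088, plus strand) the glucocorticoid motif lies 94 to 82 bases before the start and the metal motif 23 to 17 bases before it. In the *Mt2* window (chr8:94172368-94172617, plus strand) 3 metal motifs begin 223, 128 and 50 bases before the start. In the *Sgk1* window (chr10:21993640-21993889, plus strand), which precedes one of several start sites of that gene, the glucocorticoid motif lies 188 to 176 bases before the start.
Mt1: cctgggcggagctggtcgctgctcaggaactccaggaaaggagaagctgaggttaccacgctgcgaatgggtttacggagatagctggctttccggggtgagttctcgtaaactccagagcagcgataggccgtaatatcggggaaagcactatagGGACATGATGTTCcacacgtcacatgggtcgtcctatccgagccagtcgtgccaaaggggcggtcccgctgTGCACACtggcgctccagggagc
Mt2: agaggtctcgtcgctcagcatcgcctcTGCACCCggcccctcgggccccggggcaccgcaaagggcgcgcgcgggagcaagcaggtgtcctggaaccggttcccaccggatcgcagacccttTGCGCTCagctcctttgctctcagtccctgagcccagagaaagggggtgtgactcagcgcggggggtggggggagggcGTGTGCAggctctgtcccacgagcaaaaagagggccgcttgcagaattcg
Sgk1: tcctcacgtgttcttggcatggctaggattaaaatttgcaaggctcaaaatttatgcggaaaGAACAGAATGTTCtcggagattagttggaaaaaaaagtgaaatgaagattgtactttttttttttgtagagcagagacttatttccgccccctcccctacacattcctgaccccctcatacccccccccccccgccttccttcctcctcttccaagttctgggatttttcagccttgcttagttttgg
A match is a description of these letters and not a bound site. Shorter *Mt1* transcripts start downstream of this start site, so part of the DNA before them lies outside the window.

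Between 8921885 and 13696934 reads were counted on genes per library, and levels are given in CPM, the counts of a gene per 1000000 counts of the library after normalization. A gene without a read could by counting error alone have a level of 0.216 to 0.327 CPM, the worth of 3 counts. *Lrp2* had 87.7 to 166 CPM with ctrl sh, 29.7 to 42.8 CPM with *Lrp2* sh1 and 34.6 to 43.6 CPM with *Lrp2* sh2, and *Srebf2*, the gene of SREBP2, had 208 to 233 CPM with nSREBP2 and 83.5 to 113 CPM with GFP. RPE markers were not equal between groups: the summed level of 8 of them was 1942 to 5421 CPM in uninjected, 1460 to 3063 CPM in ctrl sh and 1140 to 1791 CPM in *Lrp2* sh1 libraries, but 234 to 326 CPM in GFP, 229 to 336 CPM in nSREBP2 and 270 to 533 CPM in *Lrp2* sh2 libraries. *Rpe65*, the isomerase that defines the RPE, was at 375 to 1129 CPM in uninjected libraries, but at 1.06 to 2.31 CPM with GFP, 2.45 to 3.72 CPM with nSREBP2, 1.77 to 97.0 CPM with ctrl sh, 3.56 to 44.0 CPM with *Lrp2* sh1 and 3.50 to 15.6 CPM with *Lrp2* sh2. By Y-linked genes and *Xist*, the 3 nSREBP2 mice were male and the 3 GFP mice female, so vector and sex cannot be told apart within that comparison, and all ctrl sh and *Lrp2* sh1 mice were female. Uninjected replicate 3 and *Lrp2* sh2 replicates 2 and 3 were male and the others of these groups female. Fibroblast markers exceeded the RPE markers in every group. The summed level of 6 of them was 18501 to 30272 CPM in uninjected, 34499 to 43774 CPM in GFP and 71237 to 85271 CPM in nSREBP2 libraries. It was 32786 to 46711 CPM with ctrl sh, 44229 to 53403 CPM with *Lrp2* sh1 and 42024 to 50618 CPM with *Lrp2* sh2. Such sums do not give shares of cells, but the levels below are not those of RPE cells alone.

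*Nr3c1* (ENSMUSG00000024431.14, chromosome 18, minus strand) had nearly the same level in all libraries. Its level was 241 to 278 CPM in uninjected, 257 to 296 CPM in GFP, 216 to 244 CPM in nSREBP2, 246 to 256 CPM in ctrl sh, 252 to 270 CPM in *Lrp2* sh1 and 213 to 220 CPM in *Lrp2* sh2 libraries. The highest library had 1.39 times the level of the lowest, the smallest such ratio among the 10 genes. The log2FC was −0.24 (SE 0.08) for nSREBP2 versus GFP, 0.04 (SE 0.06) for *Lrp2* sh1 versus ctrl sh and −0.21 (SE 0.06) for *Lrp2* sh2 versus ctrl sh, and only the *Lrp2* sh1 and ctrl sh libraries overlapped. Per kilobase of exon, *Nr3c1* was nevertheless one of the more abundant of the genes, with a mean over all libraries of 32.4 CPM per kb, next to 32.9 for *Tsc22d3*, 37.5 for *Klf9*, 76.3 for *Mt1* and 83.1 for *Sgk1*, and 2.21 to 26.2 for *Hif3a*, *Fkbp5*, *Zbtb16* and *Per1*.

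*Zbtb16* (ENSMUSG00000066687.5, GRCm38 chromosome 9 from 48654297 to 48836222, minus strand) encodes the zinc finger repressor PLZF, a textbook induced gene of the receptor, and it was the member with the widest range. Its level was 51.3, 36.9 and 21.2 CPM in the uninjected libraries 1 to 3, 18.4, 32.3 and 44.8 CPM with GFP, and 13.8, 38.9 and 67.9 CPM with ctrl sh. It was 7.90, 8.58 and 5.18 CPM with nSREBP2, 7.82, 12.4 and 6.28 CPM with *Lrp2* sh1, and 8.28, 4.71 and 9.08 CPM with *Lrp2* sh2. Every library of the 3 groups with nSREBP2 or an *Lrp2* hairpin thus lay below every library of the 3 control groups. The nearest were *Lrp2* sh1 replicate 2 and ctrl sh replicate 1. The log2FC was −2.14 (SE 0.31) for nSREBP2 versus GFP, −2.18 (SE 0.49) for *Lrp2* sh1 and −2.43 (SE 0.50) for *Lrp2* sh2 versus ctrl sh, which is 4.39-, 4.53- and 5.39-fold lower. Within the 3 groups of low level, the ranges of all neighbors in order of the mean overlapped, and so did those within the 3 control groups.

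*Hif3a* (ENSMUSG00000004328.15, chromosome 7 from 17031507 to 17062427, minus strand), a hypoxia-inducible factor subunit whose short forms restrain the other subunits, separated the same 6 groups. Its level was 25.1, 19.2 and 18.3 CPM in uninjected, 21, 23.2 and 17.7 CPM in GFP and 14.6, 27.6 and 34.5 CPM in ctrl sh libraries. With nSREBP2 it was 5.49, 7.53 and 5.18 CPM, with *Lrp2* sh1 9.41, 9.41 and 7.97 CPM, and with *Lrp2* sh2 5.73, 6.98 and 7.58 CPM. No library of these groups reached the lowest control library, and *Lrp2* sh1 lay above *Lrp2* sh2 without overlap. The log2FC was −1.75 (SE 0.17) with nSREBP2, −1.51 (SE 0.27) with *Lrp2* sh1 and −1.90 (SE 0.28) with *Lrp2* sh2.

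*Tsc22d3* (ENSMUSG00000031431.13, chromosome X from 140539528 to 140600659, minus strand) encodes GILZ, a leucine zipper protein that carries much of the anti-inflammatory effect of glucocorticoids. Its level was 161, 186 and 159 CPM in uninjected, 140, 188 and 245 CPM in GFP and 127, 201 and 278 CPM in ctrl sh libraries. It was 125, 113 and 90.6 CPM with nSREBP2, 88.2, 95.5 and 98.2 CPM with *Lrp2* sh1 and 88.3, 87.0 and 104 CPM with *Lrp2* sh2. The groups did not overlap in any of the 3 comparisons, although ctrl sh replicate 1 and nSREBP2 replicate 1 were almost equal. The log2FC was −0.80 (SE 0.18) with nSREBP2, −1.11 (SE 0.22) with *Lrp2* sh1 and −1.11 (SE 0.23) with *Lrp2* sh2, and both hairpins gave the same level within the error (log2FC −0.01, SE 0.08, between them).

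*Klf9* (ENSMUSG00000033863.1, chromosome 19 from 23141226 to 23168134, plus strand), a Krüppel-like transcription factor, and *Per1* (ENSMUSG00000020893.17, chromosome 11 from 69095217 to 69109960, plus strand), a repressor of the circadian clock, had smaller differences. *Klf9* had 216 to 254 CPM in uninjected, 173 to 247 CPM in GFP and 143 to 265 CPM in ctrl sh libraries, against 127 to 167 CPM with nSREBP2, 132 to 138 CPM with *Lrp2* sh1 and 124 to 137 CPM with *Lrp2* sh2. The log2FC of *Klf9* was −0.49 (SE 0.14), −0.72 (SE 0.19) and −0.74 (SE 0.19) in the same order. *Per1* had 157 to 231 CPM in uninjected, 168 to 200 CPM in GFP and 157 to 269 CPM in ctrl sh libraries. With nSREBP2 it ranged from 83.6 to 156 CPM, with *Lrp2* sh1 from 79.8 to 95.0 CPM and with *Lrp2* sh2 from 87.5 to 107 CPM. Neither gene overlapped between a treated group and its own control vector, although *Klf9* was higher in 2 nSREBP2 libraries than in ctrl sh replicate 1, and the highest nSREBP2 library (156 CPM) came close to the lowest GFP library in *Per1*, where the log2FC was −0.55 (SE 0.18), while it was −1.25 (SE 0.16) with *Lrp2* sh1 and −1.06 (SE 0.17) with *Lrp2* sh2.

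*Sgk1* (ENSMUSG00000019970.15, chromosome 10 from 21882184 to 21999903, plus strand) encodes a kinase that raises ion transport and responds to both the glucocorticoid and the mineralocorticoid receptor. Its level was 347, 566 and 595 CPM in uninjected, 472, 545 and 477 CPM in GFP and 582, 492 and 619 CPM in ctrl sh libraries. It was 231, 195 and 167 CPM with nSREBP2, 312, 315 and 288 CPM with *Lrp2* sh1 and 342, 355 and 433 CPM with *Lrp2* sh2. The 3 low groups formed a graded order without overlap: nSREBP2 was lowest, then *Lrp2* sh1, then *Lrp2* sh2, which overlapped uninjected replicate 1. The log2FC was −1.33 (SE 0.11) with nSREBP2, −0.89 (SE 0.09) with *Lrp2* sh1 and −0.57 (SE 0.11) with *Lrp2* sh2.

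*Fkbp5* (ENSMUSG00000024222.16, chromosome 17 from 28399094 to 28517527, minus strand) encodes a cochaperone that lowers the affinity of the receptor for its hormone and is used widely as a sign of receptor activity. Its level was 29.1, 22.0 and 17.6 CPM in uninjected, 25.6, 35.4 and 36.2 CPM in GFP and 18, 45.7 and 65.5 CPM in ctrl sh libraries. It was 30.1, 34.4 and 28.3 CPM with nSREBP2, 17.1, 18.9 and 20.6 CPM with *Lrp2* sh1 and 32.2, 35.3 and 33.1 CPM with *Lrp2* sh2. The nSREBP2 libraries lay inside the range of GFP, and the *Lrp2* sh2 libraries lay between ctrl sh replicates 1 and 2. Both hairpins themselves did not overlap in *Fkbp5*. The log2FC was −0.06 (SE 0.14) for nSREBP2 versus GFP, −1.19 (SE 0.36) for *Lrp2* sh1 and −0.35 (SE 0.35) for *Lrp2* sh2 versus ctrl sh, and 0.84 (SE 0.09) for *Lrp2* sh2 versus *Lrp2* sh1. In all neighboring pairs of groups in order of the mean the ranges of *Fkbp5* overlapped, which also held for *Mt2* but for none of the other 8 genes.

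**Figure D1:**
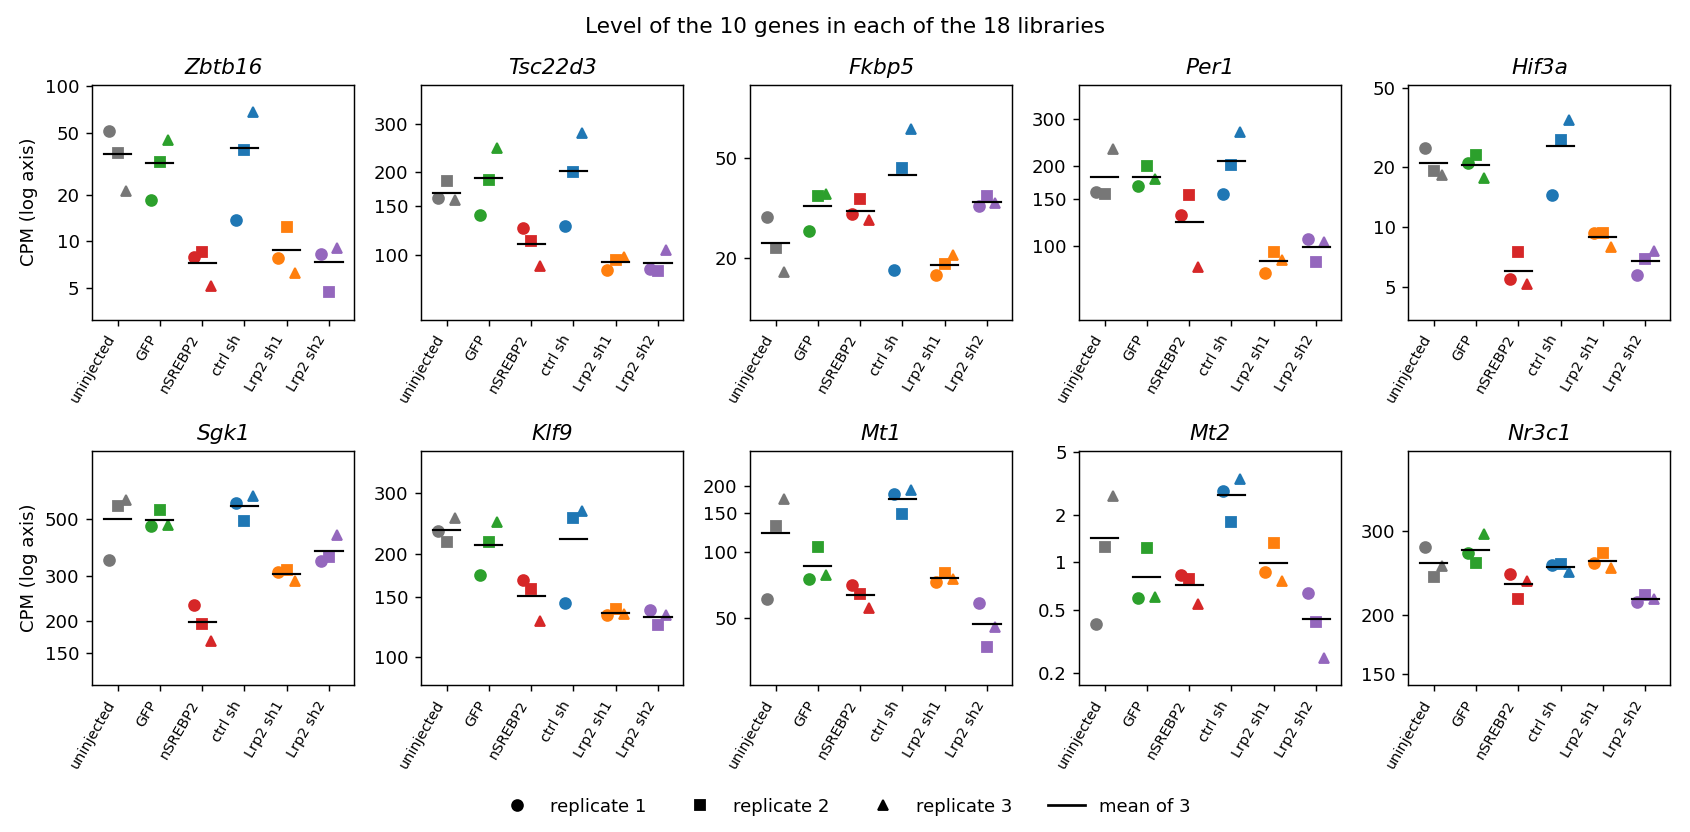
Level of each of the 10 genes (CPM, logarithmic axis, a scale of its own per gene) in the 18 libraries by group, with symbols for the replicate number and a line at the mean of 3. In *Zbtb16*, *Tsc22d3*, *Per1* and *Hif3a* the nSREBP2, *Lrp2* sh1 and *Lrp2* sh2 libraries lie below all libraries of the 3 control groups, while in *Klf9* 2 nSREBP2 libraries (158 and 167 CPM) lie above ctrl sh replicate 1 (143 CPM). *Fkbp5* overlaps and *Nr3c1* stays between 213 and 296 CPM.

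*Mt1* (ENSMUSG00000031765.8, chromosome 8 from 94179082 to 94180327, plus strand), whose promoter window above holds both motifs, did not separate the groups as the others did. Its level was 61.3, 131 and 174 CPM in uninjected, 75.6, 105 and 78.8 CPM in GFP and 183, 149 and 192 CPM in ctrl sh libraries. It was 70.8, 64.5 and 55.7 CPM with nSREBP2, 72.8, 80.7 and 75.3 CPM with *Lrp2* sh1 and 58.9, 37.1 and 45.4 CPM with *Lrp2* sh2. The ctrl sh libraries were all above the GFP libraries (log2FC 1.01, SE 0.14), and the *Lrp2* sh1 libraries overlapped those of GFP. The log2FC was −0.44 (SE 0.13) for nSREBP2 versus GFP, −1.20 (SE 0.09) for *Lrp2* sh1 and −1.88 (SE 0.16) for *Lrp2* sh2 versus ctrl sh, and −0.69 (SE 0.14) for *Lrp2* sh2 versus *Lrp2* sh1.

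*Mt2* (ENSMUSG00000031762.7, chromosome 8 from 94172664 to 94173568, plus strand) had only 3 to 40 counts in a library, and 432 of its 588 exon bases are shared with a gene on the opposite strand, *Gm45774*, in GENCODE M21, so its values are uncertain where the strand of reads was not used. Its level was 0.408 to 2.62 CPM in uninjected, 0.598 to 1.24 CPM in GFP and 0.545 to 0.837 CPM in nSREBP2 libraries. With ctrl sh it was 1.80 to 3.37 CPM, with *Lrp2* sh1 0.764 to 1.32 CPM and with *Lrp2* sh2 0.250 to 0.637 CPM. As in *Mt1*, ctrl sh was highest and *Lrp2* sh2 lowest, and the log2FC versus ctrl sh was −1.42 (SE 0.33) with *Lrp2* sh1 and −2.56 (SE 0.40) with *Lrp2* sh2. In nSREBP2 versus GFP, where the libraries overlapped, *Mt2* was removed by the filter on low counts.

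Over all 10 genes, nSREBP2 versus GFP gave 8 without overlap between the libraries of the groups, against 38.2% of all genes tested, and 6 of the 9 tested passed an adjusted *P* under 0.05, all of them lower (*Zbtb16*, *Tsc22d3*, *Hif3a*, *Sgk1*, *Klf9* and *Mt1*). Of all genes, 21% passed that threshold in this comparison and 8.47% passed it as lower. *Lrp2* sh1 versus ctrl sh gave 8 genes without overlap (25.2% of all genes) and 7 of 10 lower at the threshold (5.33% of all genes passed it, 2.28% as lower), without *Fkbp5*, *Klf9* and *Nr3c1*. *Lrp2* sh2 versus ctrl sh gave 9 without overlap (36.8% of all genes) and 9 of 10 lower (18.1% of all genes passed, 9.48% as lower), all but *Fkbp5*. Since the genes were chosen on these contrasts, nothing is read from the difference between their counts and those shares. The median log2FC of the genes tested was −0.55, −1.19 and −1.08, against −0.02, −0.01 and 0.01 over all genes. With an absolute log2FC above 1 required as well, 3, 6 and 6 of the genes remained, while 6.67%, 0.994% and 4.76% of all genes did. The comparisons of both hairpins share the ctrl sh libraries.

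**Figure D2:**
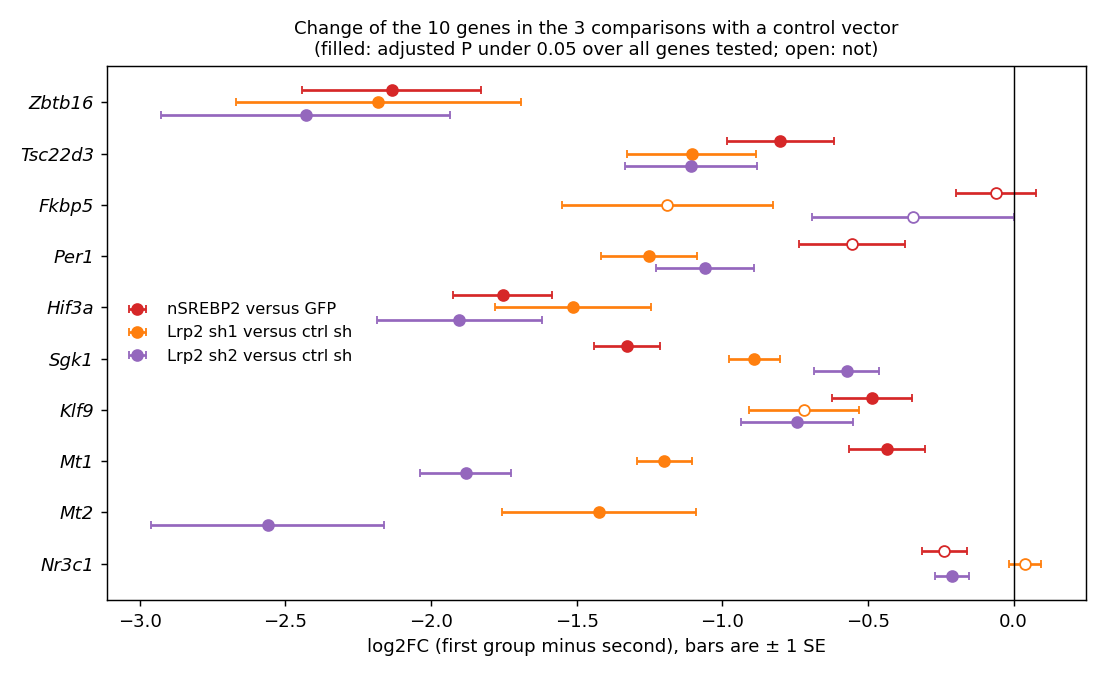
Difference of each gene in log2FC (edgeR, horizontal axis, bars are 1 SE to either side) in the comparison of nSREBP2 with GFP and in those of each *Lrp2* hairpin with ctrl sh, with filled points for an adjusted *P* under 0.05 over all genes tested. *Zbtb16* and *Hif3a* lie between −1.51 and −2.43 in all 3, *Fkbp5* reaches −1.19 with *Lrp2* sh1 alone, and *Nr3c1* lies near 0.

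The number of genes that passed depended on the fit and on single libraries. In a fit of all 18 libraries with sex as a term, only *Hif3a* (log2FC −1.76) and *Sgk1* (−1.62) of the genes passed the threshold for nSREBP2 versus GFP, against 5 in the same fit without sex. The log2FC of *Zbtb16* was −1.42 in the fit with sex, while that of *Tsc22d3* was −0.80, *Klf9* −0.53, *Mt1* −0.64 and *Per1* −0.76, against −0.80, −0.49, −0.44 and −0.55 in the fit of the 6 libraries alone. Ctrl sh replicate 1 was the lowest of its group in *Zbtb16*, *Tsc22d3*, *Fkbp5*, *Per1*, *Hif3a* and *Klf9*. Without it, the log2FC of *Lrp2* sh1 versus ctrl sh was −2.59 for *Zbtb16* and −1.56 for *Fkbp5*, and 8 of the genes passed. Without ctrl sh replicate 3, the highest of its group in 9 of the genes, these were −1.57 and −0.75, and *Zbtb16* did not pass without either ctrl sh replicate 2 or 3. Without any one of the *Lrp2* sh1 libraries, 3 genes passed (*Per1*, *Sgk1* and *Mt1*). Markers of other cells differed too. With nSREBP2, all 6 fibroblast and all 8 macrophage markers were higher and 4 of 6 endothelial and 3 of 6 melanocyte markers were lower than with GFP (adjusted *P* under 0.05, edgeR). Of 8 RPE markers 2 were higher and 2 lower, of 6 Müller glia and astrocyte markers 1 was higher and 2 lower, and 1 of 10 rod markers was higher. With *Lrp2* sh2, 5 of 6 endothelial, 5 of 5 blood, 4 of 6 melanocyte, 3 of 6 Müller glia and astrocyte and 5 of 8 RPE markers were lower and 8 of 10 rod markers were higher than with ctrl sh. Higher with *Lrp2* sh2 were also 2 of 6 fibroblast and 2 of 8 macrophage markers. With *Lrp2* sh1, 1 of 6 endothelial, 1 of 5 blood and 1 of 8 macrophage markers were lower. Of 6 Müller glia and astrocyte markers 1 was higher and 1 lower there, and no RPE, rod, fibroblast or melanocyte marker passed. The summed fibroblast markers were at 34499 to 43774 CPM with GFP and 71237 to 85271 CPM with nSREBP2, and the macrophage markers at 290 to 334 and 549 to 586 CPM. The summed endothelial markers were at 1334 to 1691 CPM with GFP, 1050 to 1118 CPM with nSREBP2, 1445 to 1551 CPM with ctrl sh, 1335 to 1425 CPM with *Lrp2* sh1 and 966 to 1040 CPM with *Lrp2* sh2. The summed melanocyte markers were lower without overlap in all 3 comparisons, with 1072 to 1132 CPM for GFP and 867 to 967 CPM for nSREBP2, and 1015 to 1195 CPM for ctrl sh against 777 to 901 CPM for *Lrp2* sh1 and 755 to 863 CPM for *Lrp2* sh2. The summed Müller glia and astrocyte markers were at 2608 to 2657 CPM with ctrl sh and 1242 to 1679 CPM with *Lrp2* sh2. None of these markers was at 0 over a whole group. Their part in the differences of the 10 genes was not tested.

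The control vectors were also compared with uninjected eyes, with 1 male among the uninjected mice and none among those of the control vectors. At the threshold on the adjusted *P* in edgeR, 0 of the 10 genes passed for GFP versus uninjected (2.48% of all genes passed, 1.41% with the limit of 1 on the log2FC) and 0 for ctrl sh versus uninjected (6.49% and 2.39%). DESeq2 gave 0 in both as well, and at an unadjusted *P* under 0.05 edgeR gave 1 (*Fkbp5*, log2FC 0.49) and 0. Where so few of all genes pass, 0 of 10 cannot tell whether injection moved these genes. They were also chosen on these same libraries. The ranges of all 10 genes overlapped between each control vector and the uninjected libraries, while 25.6% of all genes did not overlap with GFP and 31.8% with ctrl sh. Without uninjected replicate 1, *Mt1* passed in GFP versus uninjected (log2FC −0.83), and without ctrl sh replicate 1, *Fkbp5* passed in ctrl sh versus uninjected (1.27). Between both control vectors, *Mt1* alone passed, as higher in ctrl sh than in GFP (2.68% of all genes passed, 0.899% with the limit). *Mt2* had a log2FC of 1.70 (SE 0.38) there and passed in DESeq2 but not in edgeR. The libraries of *Mt1*, *Mt2* and *Nr3c1* did not overlap between both control vectors, and 19.4% of all genes did not.

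The level of *Lrp2* overlapped between both hairpins, and the 10 genes were compared between them directly. *Fkbp5* (log2FC 0.84, SE 0.09) and *Sgk1* (0.31, SE 0.09) were higher with *Lrp2* sh2 than with *Lrp2* sh1, and *Mt1* (−0.69, SE 0.14) and *Nr3c1* (−0.26, SE 0.05) were lower, 4 of the 9 genes tested. Of all genes 22.4% passed in this comparison, and 5.13% with the limit of 1, which none of these 4 exceeded. Of the 9, 5 did not overlap, against 39% of all genes. *Zbtb16* (−0.25, SE 0.29), *Tsc22d3* (−0.01, SE 0.08) and *Klf9* (−0.03, SE 0.06) overlapped between the hairpins. Sex differed here as well, since *Lrp2* sh2 replicates 2 and 3 were male. In the fit of all libraries only *Nr3c1* passed, both with and without sex as a term. With that term the log2FC was 0.11 for *Sgk1*, 0.97 for *Fkbp5* and −0.81 for *Mt1*. Cell markers differed too (adjusted *P* under 0.05, edgeR). Lower with *Lrp2* sh2 were 6 of 8 RPE, 6 of 6 endothelial, 3 of 6 Müller glia and astrocyte and 3 of 5 blood markers. Higher were 8 of 10 rod, 6 of 8 macrophage and 1 of 6 fibroblast markers and 1 of 5 muscle markers tested. Their part in the differences between the hairpins was not tested.

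The libraries of one group did not vary independently from gene to gene. After the mean of each group was subtracted from the log2 CPM, *Zbtb16*, *Tsc22d3*, *Fkbp5*, *Hif3a* and *Klf9* varied together over the 18 libraries, with Pearson's *r* of 0.55 to 0.87 in their 10 pairs (Spearman's rho 0.33 to 0.78). *Sgk1*, *Mt1* and *Mt2* formed another set, with *r* of 0.73 to 0.91 in 3 pairs (rho 0.61 to 0.86). Between the sets *r* was −0.26 to 0.27 in 15 pairs. *Per1* followed both, with *r* of 0.45 to 0.71 to the first set and 0.46 to 0.54 to the second, and *Nr3c1* neither, with *r* of −0.53 to 0.16. The sets were named after the values were seen, and the points share libraries and depth. For each pair, *r* was also taken without the 2 libraries farthest from the median of the gene listed first in the opening. The libraries left out could thus differ between pairs. There *r* was −0.07 to 0.74 in the first set and 0.43 to 0.77 in the second. In uninjected replicate 1 *Zbtb16*, *Fkbp5* and *Hif3a* were at their highest of the group while *Sgk1*, *Mt1* and *Mt2* were at their lowest, and in uninjected replicate 3 the reverse held. *Klf9* did not follow this, since it was highest in uninjected replicate 3, and *Tsc22d3* was highest in replicate 2 and lowest in replicate 3. GFP replicate 1 was lowest of its group in 8 of the genes, nSREBP2 replicate 3 in 9, and ctrl sh replicate 3 highest in 9.

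**Figure D3:**
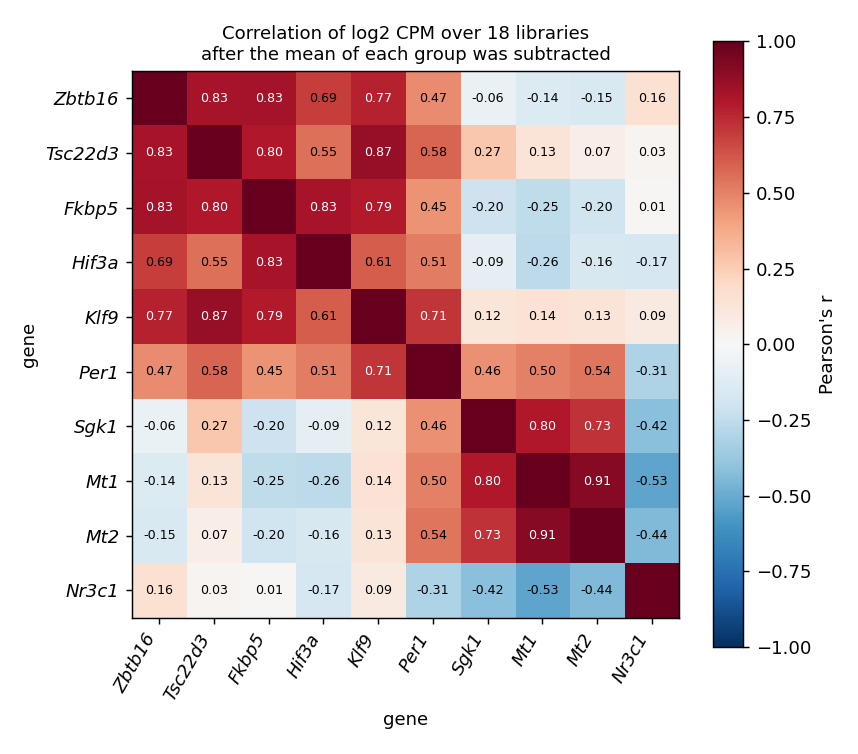
Pearson's *r* of the log2 CPM of each pair of genes over 18 libraries, after the mean of each group was subtracted, from blue (−1) to red (1). *Zbtb16*, *Tsc22d3*, *Fkbp5*, *Hif3a* and *Klf9* form one block (0.55 to 0.87) and *Sgk1*, *Mt1* and *Mt2* another (0.73 to 0.91).

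The genes outside the 10 whose log2 CPM was most like that of *Zbtb16* over all 18 libraries were *Pik3r1* (*r* = 0.955), *Ston1* (0.946), *Acer2* (0.93) and *Rgs7bp* (0.93). *Pik3r1* encodes the regulatory subunit of phosphoinositide 3-kinase and is itself known to be induced by glucocorticoids. After the group means were subtracted its *r* was 0.917. *Mt1* was most like *Surf1* (0.95), *Sdf4* (0.91), *Rab3ip* (0.90) and *Slc23a2* (0.89). *Fkbp5* was most like *Ssh2* (0.79), *Gm45819* (0.79), *Wee1* (0.79) and *Fzd1* (0.75), a weaker likeness. These genes were the highest of all genes with a mean log2 CPM of at least 1, so their coefficients are a description.

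A list of 28 other genes that glucocorticoids are known to induce was compared next, to place the 10 genes in the wider set. In nSREBP2 versus GFP, 5 of the 26 tested rose and 6 fell (adjusted *P* under 0.05, edgeR), with a median log2FC of −0.02, the same as that of all genes. These are 42.3% of those tested, against 21% of all genes. *Il1r2*, a decoy receptor of interleukin 1, rose from 0.46 ± 0.10 to 2.95 ± 0.53 CPM (SD, *n*=3; log2FC 2.63, adjusted *P* = 0.000462, edgeR). *Anxa1*, an anti-inflammatory annexin, rose 2.67-fold, from 71.4 ± 6.57 to 190 ± 94.4 CPM (log2FC 1.42, adjusted *P* = 0.0053, edgeR). Its level varied between the nSREBP2 libraries, with 141, 130 and 299 CPM in replicates 1 to 3. *Mfsd2a*, a lipid transporter, rose by a log2FC of 1.14 and *Lpin1*, a phosphatidate phosphatase, by 0.90, and *Nfkbia* rose too. *Sult1a1*, a sulfotransferase, fell from 28.5 ± 3.36 to 10.9 ± 1.97 CPM (log2FC −1.39, adjusted *P* = 0.000192, edgeR). *Glul*, glutamine synthetase (−0.73), *Pik3r1* (−0.58), *Cavin2* (−0.50), *Txnip* and *Pdk4* fell as well. As many of the genes tested lay above 0 as below it, 13 each. Sex cannot be told apart from the vector here either. Fibroblast, macrophage and other cell markers differed as well, as given above. The part of other cells in the differences of this list was not tested.

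In *Lrp2* sh1 versus ctrl sh, 1 of the 26 tested rose (*Lpin1*, log2FC 0.69, adjusted *P* = 0.00223, edgeR) and 4 fell. These were *Sult1a1* (−1.18, adjusted *P* = 0.00755, edgeR), the transcription factor gene *Cebpd* (−0.65), *Glul* (−0.40) and *Txnip*, an inhibitor of thioredoxin (−0.36). The median log2FC was −0.34 and 24 of the 26 lay below 0, against a median of −0.01 over all genes. Of those tested 19.2% passed, against 5.33% of all genes. The number called turned on ctrl sh replicate 1: without it 19 passed, and without *Lrp2* sh1 replicate 1 only 2 did.

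In *Lrp2* sh2 versus ctrl sh, 3 of 25 rose and 8 fell, with a median of −0.34 and 18 below 0. Those called are 44% of the genes tested, against 18.1% of all genes. *Anxa1* (log2FC 0.81), *Nfil3*, a transcription factor gene (0.68), and *Tgm2*, transglutaminase 2 (0.36), rose. *Sult1a1* (−1.44, adjusted *P* = 0.00219, edgeR), *Cdkn1c*, an inhibitor of the cell cycle (−0.77), *Glul* (−0.69) and *Cavin2* (−0.66) fell most, and *Dusp1*, *Txnip*, *Pdk4* and *Lpin1* fell too. *Sult1a1*, *Glul* and *Txnip* fell in all 3 comparisons with a control vector, 2 of which share the ctrl sh libraries. *Lpin1* rose with nSREBP2 and *Lrp2* sh1 and fell with *Lrp2* sh2. *Tat* and *Pck1*, targets of the receptor in liver, had at most 3 counts and 1 count in any library. Against uninjected eyes, *Mfsd2a* fell with GFP (log2FC −1.49) as the only one of 25, and *Nfil3* (−0.92), *Cebpd* (−0.80) and *Dusp1* (−0.59) fell with ctrl sh.

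**Figure D4:**
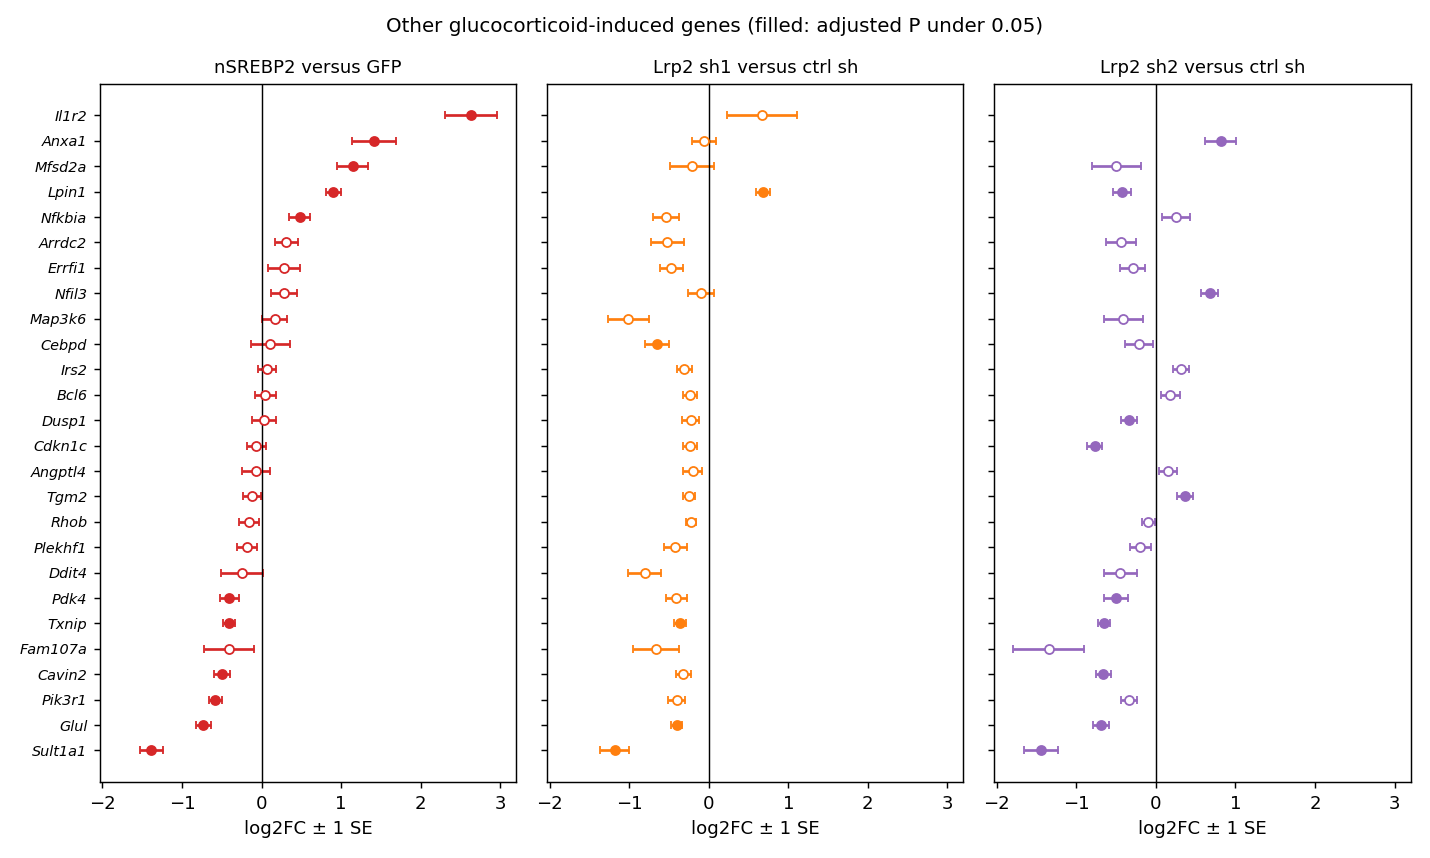
Difference in log2FC (edgeR, horizontal axis, bars are 1 SE to either side) of the other glucocorticoid-induced genes in the 3 comparisons with a control vector, in order of the value for nSREBP2 versus GFP, with filled points for an adjusted *P* under 0.05. The genes spread to both sides of 0 with nSREBP2 (5 rose and 6 fell), while 24 of 26 lie below 0 with *Lrp2* sh1.

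Of 19 genes of the receptor's partners, the supply of its ligand and its chaperones, 1 rose and 6 fell with nSREBP2, 1 rose with *Lrp2* sh1, and 1 rose and 2 fell with *Lrp2* sh2. In that order 36.8%, 5.26% and 15.8% of the list passed, against 21%, 5.33% and 18.1% of all genes. With the hairpins the share was no higher than that of all genes, so nothing is read from it. *Nr3c2*, the gene of the mineralocorticoid receptor, fell from 44.8 ± 2.98 to 16.1 ± 2.01 CPM with nSREBP2 (log2FC −1.47, adjusted *P* = 1.74e-05, edgeR) and had a log2FC of −0.09 with *Lrp2* sh1 (adjusted *P* = 0.613) and −0.39 with *Lrp2* sh2 (adjusted *P* = 0.0179). *Abcb1a*, an efflux pump of endothelium that also exports glucocorticoids, fell by 1.12 with nSREBP2 and by 1.06 with *Lrp2* sh2 on the log2 scale. *H6pd*, which supplies the cofactor of the enzyme that reactivates glucocorticoids, rose with nSREBP2 (0.58). That enzyme's own gene, *Hsd11b1*, had 1.45 to 4.28 CPM over all libraries, and its opponent *Hsd11b2* had 0.93 to 4.24 CPM. Neither passed in the 3 comparisons. The chaperone gene *Hspa8* rose with *Lrp2* sh1 (0.27), and *Hsp90aa1* fell with nSREBP2 (−0.32) and rose with *Lrp2* sh2 (0.44).

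Of 27 genes of zinc handling, 23 were tested. Of these, 4 rose and 3 fell with nSREBP2, 4 fell with *Lrp2* sh1, and 2 rose and 5 fell with *Lrp2* sh2. In that order 30.4%, 17.4% and 30.4% of those tested passed, against 21%, 5.33% and 18.1% of all genes. *Mt3*, the metallothionein of neural tissue, fell from 48.9 ± 3.48 CPM with ctrl sh to 33.7 ± 2.67 CPM with *Lrp2* sh1 (log2FC −0.54, adjusted *P* = 0.00742, edgeR) and to 12.3 ± 2.43 CPM with *Lrp2* sh2 (−1.97, adjusted *P* = 5.24e-05, edgeR). It was at 1.81 to 5.27 CPM in the GFP and nSREBP2 libraries. *Slc30a1*, the zinc exporter that metals induce together with the metallothioneins, fell in all 3 comparisons, by 0.40, 0.28 and 0.36 on the log2 scale, and so did the zinc importers *Slc39a8* and *Slc39a12*. *Mtf1*, the gene of the factor that binds the metal response element, had log2FC of −0.19, −0.21 and −0.20, none of which passed. *Slc39a4*, *Slc30a10*, *Slc39a6* and *Slc39a1* rose with nSREBP2, the last 2 of them also with *Lrp2* sh2, while *Slc39a4* fell with *Lrp2* sh2 (−1.86).

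*Mt1* was high in several libraries with much RPE marker RNA and low in several with little. The ctrl sh libraries, at 149 to 192 CPM of *Mt1*, had 1460 to 3063 CPM of RPE markers, and the *Lrp2* sh2 libraries, at 37.1 to 58.9 CPM, had 270 to 533 CPM. This did not hold throughout. *Lrp2* sh1 had 1140 to 1791 CPM of RPE markers with *Mt1* at 72.8 to 80.7 CPM, and GFP had 234 to 326 CPM of RPE markers with *Mt1* at 75.6 to 105 CPM. Uninjected replicate 1 had 1942 CPM of RPE markers with *Mt1* at only 61.3 CPM. Uninjected replicates 2 and 3 had 5146 and 5421 CPM of RPE markers with *Mt1* at 131 and 174 CPM. *Zbtb16* did not order the libraries in this way: GFP libraries, with 234 to 326 CPM of RPE markers, had 18.4 to 44.8 CPM of *Zbtb16*, and nSREBP2 libraries, with 229 to 336 CPM, had 5.18 to 8.58 CPM. The GFP and nSREBP2 mice also differed in sex, and their libraries in markers of other cells. The part of RPE content and of other cells in the differences of *Mt1* and *Zbtb16* was not tested.

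**Figure D5:**
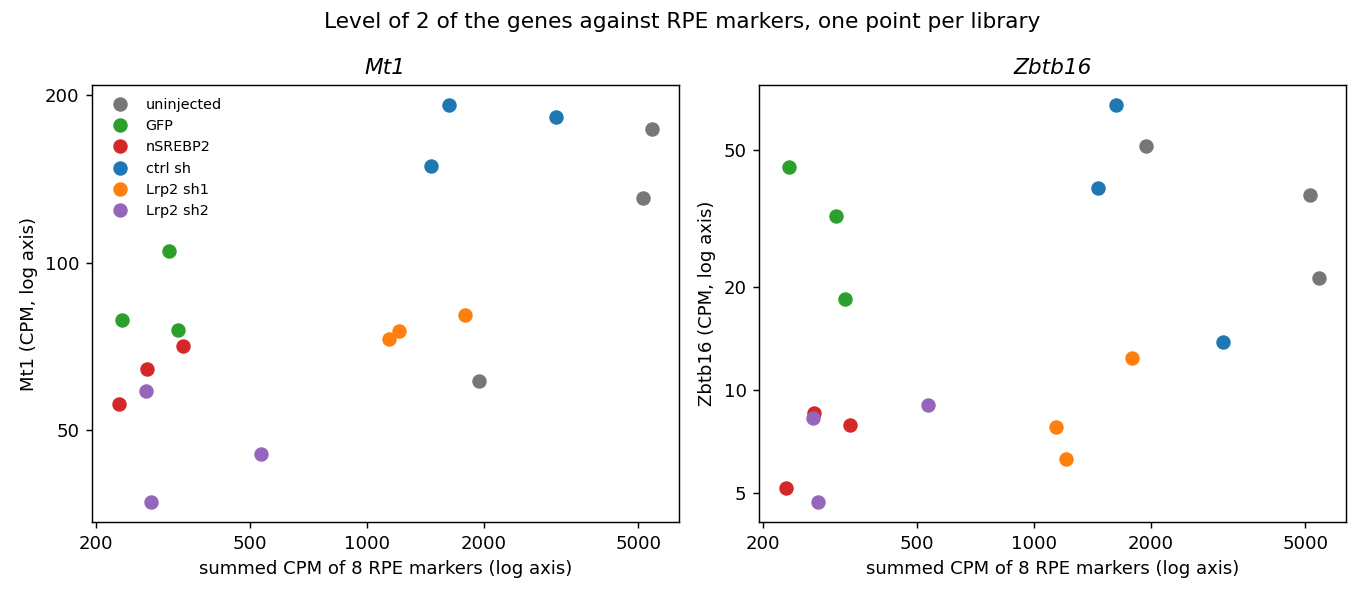
Level of *Mt1* (left) and *Zbtb16* (right) against the summed level of 8 RPE markers in each of the 18 libraries (CPM, both axes logarithmic), colored by group. At 229 to 336 CPM of RPE markers, GFP libraries hold 18.4 to 44.8 CPM and nSREBP2 libraries 5.18 to 8.58 CPM of *Zbtb16*. These groups also differ in sex and in markers of other cells.

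Paralogs of the 10 genes were examined, and the clock genes with them, because *Per1* is one of the 10 and a clock gene. *Per2* and *Per3* are in both lists. Of 12 paralogs, 6 of 11 tested fell with nSREBP2, 2 of 10 fell with *Lrp2* sh1, and 6 of 10 fell and 1 rose with *Lrp2* sh2. In that order 21%, 5.33% and 18.1% of all genes passed, which is also the share to set beside the clock genes. *Per2* fell with nSREBP2 (log2FC −0.77, adjusted *P* = 0.00223, edgeR) and *Lrp2* sh2 (−0.60). *Sgk3* fell in all 3 (−0.57, −0.67 and −0.93), as did *Epas1*, the gene of HIF2A (−0.75, −0.27 and −0.83), while *Hif1a* rose with *Lrp2* sh2 (0.44). All 13 clock genes counted were tested. In nSREBP2 versus GFP 2 rose, *Npas2* (0.71) and *Arntl* (0.56), both of the activating arm, and 6 fell, among them *Ciart* (−1.16), *Dbp* (−0.77), *Per2* and *Hlf* (−0.61), which that arm activates. With *Lrp2* sh2 6 fell and none rose, led by *Hlf* (−0.68), *Dbp* (−0.62), *Per2* and *Tef* (−0.46). With *Lrp2* sh1 0 clock genes passed in edgeR, where 5 did at an unadjusted *P* under 0.05 and DESeq2 called 2. The hour at which the mice were killed is not given in the sources used here, and its part in the levels of *Per1* and the clock was not tested.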

How the data were processed

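Total RNA of RPE from 18 mice, 3 per group, was depleted of ribosomal RNA and made into directional libraries. The authors aligned the reads to GRCm38 with STAR at default settings and deposited raw counts per gene. Their gene annotation and strand setting are not given in the sources used here. The 10 genes and all gene and marker lists were chosen with earlier results of these data known.

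Starting from the deposited counts, genes with low counts were removed (filterByExpr), libraries were scaled by TMM, and each of 7 comparisons was fitted on its own 6 libraries with the quasi-likelihood test of edgeR 4.0.16 in R 4.3.3 over all genes left (17801 to 18089), without covariates. *P*-values were adjusted by Benjamini-Hochberg with a threshold of 0.05, and a limit of 1 on the absolute log2FC was an alternative. Further alternatives were DESeq2 1.42.0, its size factors in edgeR, no filter, at least 10 counts required of each library, a joint fit of the 18 libraries, the joint fit with sex as a term, the replicate number as a block, and each library left out. Libraries are separate mice, and replicates differed beyond sampling noise. On simulated counts for nSREBP2 versus GFP over 17579 genes, edgeR recovered 186 of 200 genes changed by a log2 fold of 2, with 20 false calls. SE is the standard error of the log2FC, and errors of means are SD over 3 libraries. Sex was read from *Xist* and Y-linked genes. Correlations used log2 of CPM with an offset of 0.5.

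Named were the 10 genes, for each other list up to 4 called genes of the largest rise and fall per comparison, and the 4 genes most like *Zbtb16*, *Fkbp5* and *Mt1*. Other named genes (*Nfkbia*, *Txnip*, *Pdk4*, *Dusp1*, *Lpin1* or *Slc30a1* where not among these, *Tat*, *Pck1*, *Hsd11b1*, *Hsd11b2* and *Mtf1*) were chosen after their values were seen. Gene positions are those of GENCODE M21, and promoter sequences are from RefSeq (GRCm38.p6).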

Additional observations from a re-analysis of the deposited data

Results flagged for a closer look

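Genes beyond the 10 are given here where the effects of the 2 *Lrp2* hairpins, which share the ctrl sh libraries, differed in a direct edgeR comparison of *Lrp2* sh2 with *Lrp2* sh1, or where the 2 control vectors differed. Groups of 3 libraries were too small for a test of single outlying libraries. Of the other glucocorticoid-induced genes, 9 were higher and 5 lower with *Lrp2* sh2 than with *Lrp2* sh1 (adjusted *P* under 0.05). They are 53.8% of those tested, against 22.4% of all genes. The 4 that were most above *Lrp2* sh1 were *Anxa1* (log2FC 0.87), *Nfkbia*, the inhibitor of NF-κB (0.79), *Nfil3* (0.77) and *Irs2*, an adaptor of the insulin receptor (0.62). The 4 that were most below it were *Lpin1* (−1.11), *Cdkn1c* (−0.54), *Cavin2* (−0.35) and *Txnip* (−0.29). Of the zinc genes, the transporters *Slc39a1* (0.42), *Slc39a6* (0.33) and *Slc39a14* (0.28) were higher with *Lrp2* sh2, and *Slc39a4* (−2.13), *Mt3* (−1.44), *Slc39a3* (−0.27) and *Slc30a4* (−0.26) were lower. Markers of RPE and other cells also differed between the hairpins, as given above, and their part in these differences was not tested.

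Between the control vectors, ctrl sh was higher than GFP in *Mfsd2a* (log2FC 1.46), *Glul* (0.44), *Mt3* (3.88), *Slc39a4* (2.93) and *Slc39a12* (1.35). The level of *Mt3* was 45.7 to 52.6 CPM with ctrl sh, 1.81 to 5.21 CPM with GFP and 10.2 to 27.7 CPM in uninjected libraries. The RPE markers also differed between both control vectors, and their part in these differences was not tested.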

How the results depend on the processing

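Numbers of genes at the threshold are given for the 10 genes and for the other glucocorticoid-induced genes. For the 10 genes they changed from 6 to 2 with sex as a term and 3 with the limit of 1 on the log2FC in nSREBP2 versus GFP, from 1 to 2 with DESeq2 and 2 without a filter in ctrl sh versus GFP, and from 4 to 1 in the fit of all 18 libraries, 1 with sex as a term and 0 with the limit in *Lrp2* sh2 versus *Lrp2* sh1. For the other genes in *Lrp2* sh1 versus ctrl sh they changed from 5 to 10 with DESeq2, 13 without a filter and 1 with the limit, and in GFP versus uninjected from 1 to 5 with DESeq2, 7 without a filter, 6 in the fit of all libraries and 3 with sex as a term. In ctrl sh versus GFP they changed from 2 to 1 in the fit of all libraries, 1 with sex as a term and 1 with the limit, and in *Lrp2* sh2 versus *Lrp2* sh1 from 14 to 8 with sex as a term and 1 with the limit. The limit also left 4 of 11 in nSREBP2 versus GFP, 1 of 11 in *Lrp2* sh2 versus ctrl sh and 0 of 3 in ctrl sh versus uninjected. The cause of these changes was not tested, other than that a limit on the log2FC removes genes.

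Leaving out 1 library at a time gave, in the order nSREBP2, *Lrp2* sh1 and *Lrp2* sh2 versus their controls, 4 to 6, 3 to 8 and 7 to 9 of the 10 genes and 9 to 11, 2 to 19 and 7 to 14 of the others. GFP and ctrl sh versus uninjected gave 0 to 1 and 0 to 1 of the 10 genes and 1 to 4 and 0 to 3 of the others. Ctrl sh versus GFP gave 1 and 0 to 2, and *Lrp2* sh2 versus *Lrp2* sh1 gave 3 to 4 and 10 to 15. In *Fkbp5* the sign of the log2FC changed with the setting, from −0.21 to 0.13 with nSREBP2 and from −0.73 to 0.08 with *Lrp2* sh2, where it passed in none of the main fits. With the replicate number as a block (replicate block), 6, 5 and 7 of the 10 genes and 10, 3 and 8 of the others passed in the same order of nSREBP2, *Lrp2* sh1 and *Lrp2* sh2, and 3 of the others in GFP versus uninjected. The deviations of same-numbered libraries had correlations of −0.26 to 0.29, and in no comparison did all 3 exceed 0.1. These values cannot tell whether same-numbered libraries share a litter, a day or a batch. Over single genes named, 2369 values under an alternative kept their direction and their side of the threshold or moved by less than the spread, 297 were no longer past the threshold and 6 values of the 10 genes moved by more than the spread. *Mt2* had 3 to 40 counts a library, where *Mt1* had 441 to 2543, and the cause of its low counts was not tested.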

Other observations

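Because *Hif3a* belongs to the hypoxia response, 10 genes that hypoxia induces were examined with it. Of all genes, 21%, 5.33% and 18.1% passed with nSREBP2, *Lrp2* sh1 and *Lrp2* sh2 versus their controls. With nSREBP2, 3 rose and 1 fell versus GFP: *Egln3*, a prolyl hydroxylase that marks hypoxia-inducible factors for decay (log2FC 1.72, adjusted *P* = 1.57e-05, edgeR), *Pfkfb3*, an activator of glycolysis (0.58), and *Adm* (0.49) rose, and the glucose transporter gene *Slc2a1* fell (−1.09). *Slc2a1* also fell with *Lrp2* sh1 (−0.50), as the only one called there. With *Lrp2* sh2, *Egln3* (1.01) and *Pfkfb3* (0.80) rose and *Vegfa*, the growth factor of vessels, fell (−0.88). Against uninjected eyes, *Car9* fell with both GFP (−1.47) and ctrl sh (−1.37), and *Pfkfb3* with ctrl sh (−0.54).

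Immediate early genes, which respond within minutes to handling of tissue, were examined because several glucocorticoid-induced genes are also quick to respond. All 9 had a negative log2FC in GFP versus uninjected, where 5 fell (adjusted *P* under 0.05, edgeR), led by *Nr4a1* (−1.28), *Atf3* (−1.17), *Fosb* (−0.99) and *Fos* (−0.93). All 9 were negative in ctrl sh versus uninjected too, where 6 fell, led by *Egr2* (−1.51), *Atf3* (−1.41), *Nr4a1* (−1.20) and *Junb* (−1.20). Both comparisons share the uninjected libraries. Of all genes, 2.48% passed in GFP and 6.49% in ctrl sh versus uninjected. With nSREBP2 versus GFP 0 passed in edgeR (1 at an unadjusted *P* under 0.05, and 1 in DESeq2), and with *Lrp2* sh1 versus ctrl sh 0 passed (3 unadjusted, and 0 in DESeq2). With *Lrp2* sh2, *Egr1* (−0.61) and *Nr4a1* (−0.41) fell, 22.2% of these genes against 18.1% of all genes.

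Of the receptor and zinc lists against uninjected eyes, *Mt3* and *Slc39a4* fell with GFP (log2FC −2.69 and −3.06), and *H6pd* (0.41), *Mt3* (1.19) and *Slc30a4* (0.31) rose with ctrl sh. Of 8 RPE markers, 7 were lower and 0 higher with GFP, and 1 was lower and 0 higher with ctrl sh (adjusted *P* under 0.05, edgeR). The part of RPE content in these differences was not tested. No gene of the receptor list passed with GFP in edgeR, where 4 did at an unadjusted *P* under 0.05 and 1 did in DESeq2.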
